A study of Mus musculus with 10 samples.

Results

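The S100a genes examined here were S100a1, S100a4, S100a6, S100a7a, S100a8, S100a9, S100a10, S100a11, S100a14 and S100a16, the members of the family that are active in skin outside the hair shaft. They were taken by symbol from the authors' table of normalised values, and all 10 were found among its 17016 gene symbols. The study sequenced whole-skin RNA of BALB/c mice, all of them females of 10 to 11 weeks. All animals received 5% imiquimod cream on shaved back skin, once a day over 5 days. Imiquimod activates the innate receptor TLR7 and gives inflammation resembling psoriasis. The 5 samples of one group came from mice that also received quinpirole, which activates the dopamine receptor DRD2, by 5 injections into the peritoneum, and the 5 of the other from mice given vehicle. Both groups are therefore inflamed skin, and skin free of imiquimod was not analysed here. Whether each sample is its own mouse is not in the labels, and the p-values rest on the spread among these samples, which may be technical.

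S100 proteins are small calcium-binding proteins that change shape when calcium binds and then attach to partner proteins. S100a8 and S100a9 pair to form calprotectin, which withholds zinc and manganese from microbes and, once released, signals through TLR4 and RAGE. Both are made by neutrophils and by inflamed keratinocytes, and together with the relatives of human psoriasin (S100A7), to which mouse S100a7a belongs, they are among the best known products of the psoriatic epidermis. Most S100 genes lie together in a cluster beside the genes of the cornified envelope.

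On mm10, all 10 genes lie on chromosome 3. From S100a1, which begins at 90511034 on the minus strand, to S100a9, which ends at 90695721 on the minus strand, 8 of the genes share one stretch. S100a11 (93520488 to 93526287) and S100a10 (93555080 to 93564643) stand farther along on the plus strand. S100a7a occupies 90654017 to 90658669 and S100a8 90668978 to 90670035, both on the plus strand. The 3 genes with the largest differences between the groups, S100a7a, S100a8 and S100a9, stand next to each other among the 10, and the 250 bases before the RefSeq start of each are printed for that reason (GRCm38.p6, 5′ to 3′ on the strand of the gene). Capitals mark matches, on either strand, to any of 5 motifs. The letters of the start-site box were TATAAA. Those of the factor AP-1 were TGANTCA. For the C/EBP factors the search used TTGCNNAA. For the STAT factors it used TTCNNNGAA, and the NF-kB motif was the last.

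S100a7a, chr3:90654052-90654301, plus strand: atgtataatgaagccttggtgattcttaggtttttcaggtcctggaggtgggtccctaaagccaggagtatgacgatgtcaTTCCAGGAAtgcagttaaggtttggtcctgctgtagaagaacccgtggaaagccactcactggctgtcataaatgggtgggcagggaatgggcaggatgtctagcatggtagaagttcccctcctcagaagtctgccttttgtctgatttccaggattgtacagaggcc
S100a8, chr3:90668821-90669070, plus strand: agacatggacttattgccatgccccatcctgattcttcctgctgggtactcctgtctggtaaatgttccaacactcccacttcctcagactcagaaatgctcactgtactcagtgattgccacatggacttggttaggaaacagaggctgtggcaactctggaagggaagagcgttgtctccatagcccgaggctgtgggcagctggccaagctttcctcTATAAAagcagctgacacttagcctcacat
S100a9, chr3:90695722-90695971, minus strand: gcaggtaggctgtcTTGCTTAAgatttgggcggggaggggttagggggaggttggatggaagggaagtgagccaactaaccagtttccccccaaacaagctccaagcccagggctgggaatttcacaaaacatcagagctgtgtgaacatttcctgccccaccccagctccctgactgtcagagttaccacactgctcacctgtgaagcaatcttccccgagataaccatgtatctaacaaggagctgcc

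The 3 windows held 1 match each and shared none of them. S100a7a had the STAT letters, which begin 169 bases before the start, S100a8 had the TATA letters at 30 bases and S100a9 the C/EBP letters at 236 bases. Among 32851 promoter windows of the same length, 7.02% held the STAT letters, 12.4% the TATA letters and 9.56% the C/EBP letters. Windows were at hand for 8 of the 10 genes. Among the others, S100a4 also had the TATA letters, at 31 bases, and S100a11 and S100a16 had those of AP-1, which stood in 6.75% of all windows. A match is a stretch of letters and not a measured site. GENCODE starts S100a8 farther upstream than RefSeq, inside the window printed, and lists for S100a7a a transcript without a coding sequence that also starts upstream.

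Libraries held between 6763367 and 8361877 reads, and 1 read was worth 0.119 to 0.146 CPM, the unit of the deposited table, here reads per 1e+06 on a scaled library size. The S100a genes had from 13 reads, for S100a7a in a quinpirole library, to 65833 reads, for S100a9 in a vehicle library. Skin keratins were abundant in both groups, with Krt14 at 9269 ± 2330 CPM under vehicle and 7755 ± 2303 under quinpirole (SD, n = 5 in each group) and Krt10 at 1445 ± 376 and 2271 ± 511. The summed level of 20 hair shaft genes ran from 4.75 to 5906 CPM in vehicle and from 7.88 to 5643 CPM with quinpirole, so both groups held libraries with much and with little hair. All 20 had lower values with quinpirole, none was called and none had an unadjusted p under 0.05 (limma), with a median log2 fold change of -1.69. The summed level of 18 skeletal muscle genes ran from 701 to 2467 CPM in vehicle and from 1408 to 6582 with quinpirole.

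Per kilobase of exon, S100a9 and S100a8 were by far the most abundant of the 10 genes in vehicle-treated skin, at 12435 ± 3665 and 9760 ± 2725 CPM per kilobase (SD, n = 5). Their mean ± SD intervals overlapped, but both were read in the same libraries. In vehicle libraries S100a9 CPM was 1.29 to 1.48 times that of S100a8, before correction for exon lengths of 522 and 486 bases. S100a11 followed at 978 ± 220 CPM per kilobase, then S100a14 at 314 ± 39.5 and S100a6 at 297 ± 40.1, which differed by less than their spread. S100a16 stood at 209.6 ± 16.3 and S100a10 at 178 ± 13.8 CPM per kilobase. The lowest were S100a4 at 82.0 ± 26.6, S100a1 at 32.8 ± 4.98 and S100a7a at 16.9 ± 7.49 CPM per kilobase. With quinpirole S100a9 and S100a8 still led, at 6267 ± 2590 and 5213 ± 2278 CPM per kilobase, and S100a7a was again last, at 3.42 ± 1.87. S100a6, S100a14, S100a10 and S100a16 stood between 193 and 323 CPM per kilobase with quinpirole.

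**Figure D1:**
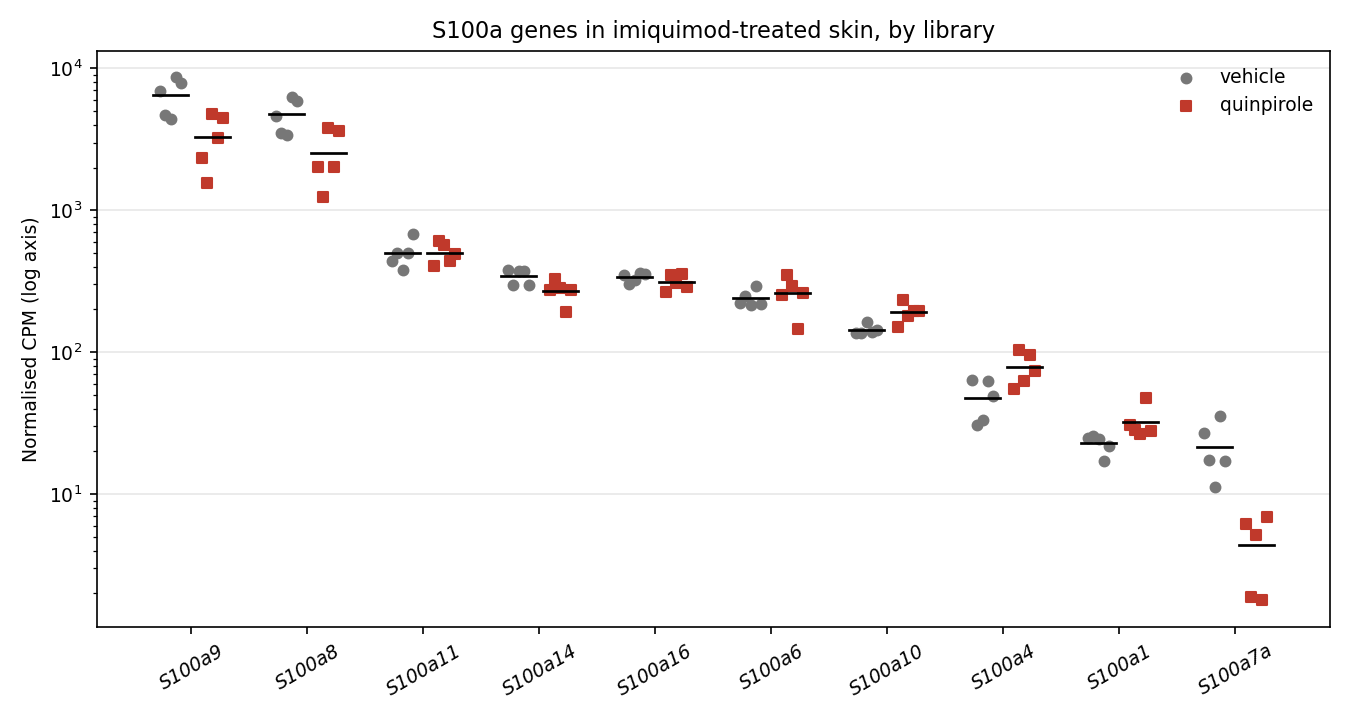
Normalised CPM of each S100a gene on a log axis, with 5 vehicle libraries (circles) and 5 quinpirole libraries (squares) and the group mean as a bar. The quinpirole libraries of S100a7a lie below every vehicle library, those of S100a1 lie above every vehicle library, and the other 8 genes overlap.

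Between the groups the family split. S100a7a, S100a8, S100a9 and S100a14 had lower values with quinpirole, S100a1, S100a4 and S100a10 had higher values, and S100a6, S100a11 and S100a16 differed by less than the spread between libraries. None of the 10 passed the test over all genes (limma, Benjamini-Hochberg adjusted p from 0.0839 to 0.981). In the same test 0.0206% of 14548 genes were called, 3 in all (0.0137% higher and 0.00687% lower), so the test called very little anywhere. At an unadjusted p under 0.05 stood 7 of the 10, with 3 higher and 4 lower, where 11.4% of all tested genes did (6.92% higher and 4.47% lower). The genes, and the gene lists below, were chosen with earlier results of these data known, so that count and those of the lists are descriptions. The quasi-likelihood test of edgeR on recovered reads called 0 of the 10 and 0.0344% of all genes. DESeq2 called 3 of the 10, S100a7a, S100a9 and S100a10, and 1.51% of all genes. The groups did not overlap for 2 of the 10, S100a7a and S100a1, where they did not for 2.2% of all tested genes. The median log2 fold change of the 10 genes was -0.053, beside -0.0021 over all genes tested. In bulk skin, fewer cells that make a transcript and less of it per cell cannot be told apart.

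**Figure D2:**
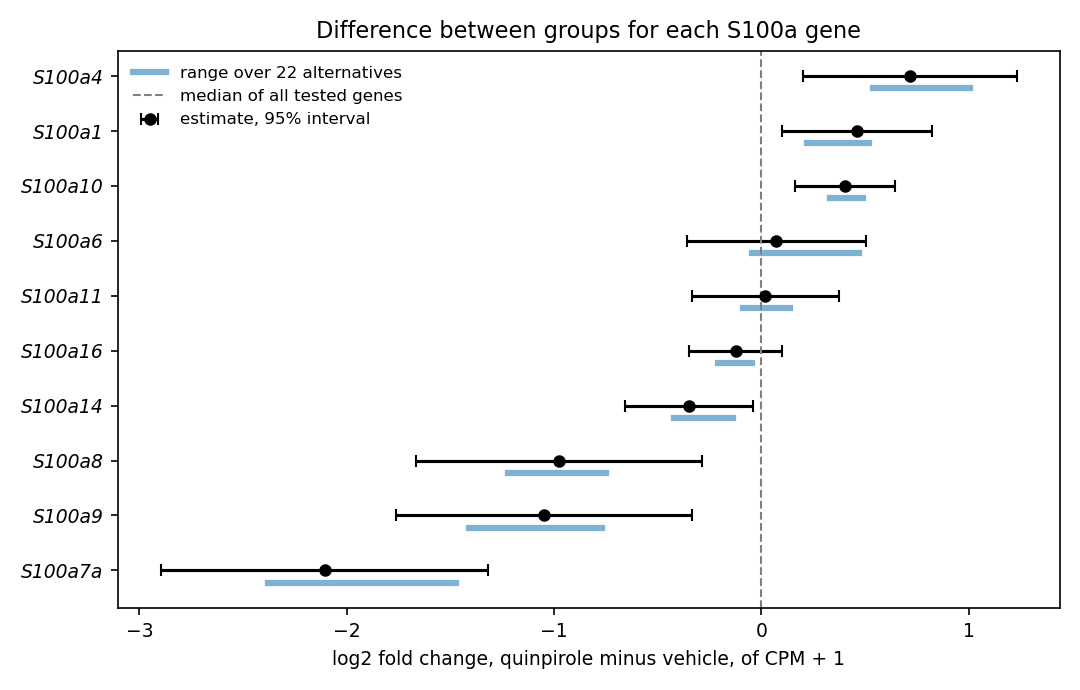
Log2 fold change of CPM plus 1, quinpirole minus vehicle, for each S100a gene, with the limma 95% interval (black) and the range over 22 other processing settings (blue; the edgeR and DESeq2 values are on their own log2 scale). S100a7a lies farthest from the median of all tested genes, at -2.11, and S100a4 is highest at 0.72.

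S100a7a, an antimicrobial and chemoattractant protein of the inflamed epidermis, showed the largest difference of the family. It measured 26.9, 17.4, 11.3, 35.5 and 17.1 CPM in vehicle replicates 1 to 5, and 6.18, 1.89, 5.18, 1.78 and 6.85 CPM in quinpirole replicates 1 to 5. Every quinpirole library was below every vehicle library. Of all tested genes, 0.859% had groups that did not overlap in this direction. The mean was 21.6 ± 9.58 CPM under vehicle and 4.38 ± 2.39 under quinpirole (SD, n = 5 in each group), 4.94 times as high under vehicle. The log2 fold change was -2.11 with SE 0.36 (95% interval -2.90 to -1.32; limma adjusted p = 0.0839), rank 15 of all tested genes by p. The value rested on 813 reads in all vehicle libraries and 170 in all quinpirole libraries. DESeq2 gave -2.30 (adjusted p = 1.33e-05) and edgeR -2.29 (adjusted p = 0.106).

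S100a8, the smaller subunit of calprotectin, measured 4644, 3505, 3407, 6313 and 5849 CPM in vehicle replicates 1 to 5, and 2030, 1242, 3768, 2008 and 3620 CPM in quinpirole replicates 1 to 5. Quinpirole replicates 1, 2 and 4 were below every vehicle library, and replicates 3 and 5 lay among the lower vehicle libraries. The means were 4743 ± 1324 and 2534 ± 1107 CPM (SD, n = 5 each), with a log2 fold change of -0.98, SE 0.32 and 95% interval -1.67 to -0.29 (limma adjusted p = 0.270).

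S100a9, its partner subunit, measured 6867, 4663, 4381, 8696 and 7849 CPM in vehicle replicates 1 to 5, and 2350, 1568, 4746, 3247 and 4447 CPM in quinpirole replicates 1 to 5. The same 3 quinpirole libraries were below all vehicle libraries, and the groups overlapped. The log2 fold change was -1.05, SE 0.33 and 95% interval -1.76 to -0.33 (limma adjusted p = 0.260). DESeq2 called S100a9 at -0.99 (adjusted p = 0.0412) and did not call S100a8 at -0.91 (adjusted p = 0.0725).

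Together the subunits took 1.12 ± 0.283% of all normalised reads in vehicle libraries and 0.576 ± 0.230% in quinpirole libraries (SD, n = 5 in each group). Of the summed CPM of the 10 genes they made up 83.7% to 89.4% in vehicle libraries and 58.4% to 83.2% in quinpirole libraries. These ranges did not overlap but nearly met, with quinpirole replicate 5 at 83.2% and vehicle replicate 3 at 83.7%. Quinpirole replicate 2 was the lowest at 58.4%, and the other quinpirole libraries were at 75.3% or more. This share was not tested and has no counterpart over all genes, and the CPM of each subunit overlapped between the groups. The ratio of S100a9 to S100a8 CPM, which is not corrected for length, lay between 1.29 and 1.48 in vehicle libraries. It lay between 1.16 and 1.62 in quinpirole libraries, and the groups overlapped. S100a8 CPM was 173 to 343 times that of S100a7a in vehicle libraries and 328 to 1128 times in quinpirole libraries.

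Neutrophils make much calprotectin, and their markers were measured beside it. Of 22 neutrophil genes looked for, 19 were in the table and 14 were high enough to test. Of these 11 had lower values with quinpirole and 3 higher, and none was called (limma). Of the 14, 1 had an unadjusted p under 0.05 (7.14%, beside 11.4% of all tested genes), and the median log2 fold change was -0.54. Their summed level ran from 133 to 343 CPM in vehicle and from 133 to 237 with quinpirole. Ly6g, Ngp and Elane were not among the gene symbols, and Mpo, the myeloperoxidase gene, had 2 vehicle and 13 quinpirole reads in all (two-sided exact permutation p = 0.0159, or 0.0794 adjusted over the 10 listed genes below the filter). The smallest p-values among the 14 tested were those of the gelatinase Mmp9, with 8.73 ± 4.34 CPM under vehicle and 4.28 ± 1.99 under quinpirole (log2 fold change -0.82, limma adjusted p = 0.388), and the receptor Trem1 (-0.93, 0.457). Trem1 was at 12.3 CPM in vehicle replicate 4, and its log2 fold change was -0.53 without that library. With the neutrophil list mean as a covariate, the log2 fold change was -0.77 for S100a8 (limma adjusted p = 0.382), -0.77 for S100a9 (0.372) and -1.88 for S100a7a (0.130). The part of neutrophils in these values was not tested.

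S100a14 is an S100 protein of epithelial cells. S100a14 measured 381, 295, 371, 371 and 296 CPM in vehicle replicates 1 to 5, and 276, 329, 286, 191 and 274 CPM in quinpirole replicates 1 to 5. Quinpirole replicate 2 lay among the vehicle libraries and the other 4 were below all of them. The log2 fold change was -0.35 with SE 0.14 (limma adjusted p = 0.378), and it was -0.23 without quinpirole replicate 4 and -0.14 with the skeletal muscle list mean as a covariate. S100a16 ranged from 301 to 364 CPM in vehicle and from 263 to 354 with quinpirole (log2 fold change -0.12, 95% interval -0.35 to 0.10).

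S100a10 and S100a11 bind annexins and are present in most cells. S100a10, the partner of annexin A2, measured 136, 135, 162, 139 and 144 CPM in vehicle replicates 1 to 5, and 149.6, 233, 179.8, 196 and 196 CPM in quinpirole replicates 1 to 5. Quinpirole replicate 1 was below vehicle replicate 3, and the other 4 were above every vehicle library. The log2 fold change was 0.40 with SE 0.11 and 95% interval 0.16 to 0.65 (limma adjusted p = 0.231), and DESeq2 called it at 0.41 (adjusted p = 0.0455). S100a11, which binds annexin A1 and takes part in the cornified envelope, ranged from 379 to 679 CPM in vehicle and from 403 to 609 with quinpirole. Its log2 fold change was 0.018 with a 95% interval of -0.34 to 0.37, and its sign turned in 7 of 22 other settings.

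S100a4 is a protein of fibroblasts and myeloid cells that binds non-muscle myosin. It measured 63.5, 30.6, 33.4, 62.3 and 49.5 CPM in vehicle replicates 1 to 5, and 54.6, 104, 62.6, 95.1 and 74.0 CPM in quinpirole replicates 1 to 5. Quinpirole replicates 2, 4 and 5 were above all vehicle libraries, and replicates 1 and 3 were level with the higher vehicle libraries. The log2 fold change was 0.72 with SE 0.24 and 95% interval 0.20 to 1.23 (limma adjusted p = 0.281). S100a4 shares its locus on the same strand with an annotated gene, Gm42674, that is not in the authors' table, so reads of the overlap may have been divided. S100a6, calcyclin, ranged from 216 to 293 CPM in vehicle and from 145 to 349 with quinpirole (log2 fold change 0.071, 95% interval -0.36 to 0.50), with quinpirole replicate 4 the lowest of all libraries and quinpirole replicate 2 the highest.

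Markers of macrophages and fibroblasts, which carry S100a4, were measured beside it. Of 13 tested monocyte and macrophage genes, 11 had higher values with quinpirole, none was called (limma), 2 had an unadjusted p under 0.05 (15.4%, beside 11.4% of all tested genes), and the median log2 fold change was 0.30. Their summed level ran from 985 to 2004 CPM in vehicle and from 1724 to 2263 with quinpirole. The mannose receptor gene Mrc1 measured 298 ± 108 and 446 ± 83.3 CPM (log2 fold change 0.65, limma adjusted p = 0.349, and 0.42 without vehicle replicate 2) and Cd68 35.1 ± 8.84 and 45.6 ± 6.97 CPM (0.39, 0.408). Of 11 fibroblast genes, 6 had higher and 5 lower values, and none was called. An unadjusted p under 0.05 stood for 4 of the higher and 1 of the lower (45.5% of the 11, beside 11.4% of all tested genes). The smallest p was that of the proteoglycan gene Lum (log2 fold change 0.88, limma adjusted p = 0.232). The summed level of the fibroblast genes ran from 5446 to 8613 CPM in vehicle and from 6266 to 8079 with quinpirole. The part of these cells in the S100a4 values was not tested.

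S100a1 binds the ryanodine receptor of striated muscle, where it is most abundant. It measured 24.9, 25.6, 24.4, 17.2 and 21.7 CPM in vehicle replicates 1 to 5, and 30.6, 28.1, 26.6, 47.6 and 27.9 CPM in quinpirole replicates 1 to 5. Every quinpirole library was above every vehicle library, with vehicle replicate 2 at 25.6 CPM and quinpirole replicate 3 at 26.6 the closest. Of all tested genes, 1.34% had groups that did not overlap in this direction. The log2 fold change was 0.46 with SE 0.16 and 95% interval 0.10 to 0.82 (limma adjusted p = 0.314), 0.31 without quinpirole replicate 4 (0.347) and 0.22 without both libraries numbered 4. All 18 skeletal muscle genes tested had higher values with quinpirole, and none was called. Of the 18, 14 had an unadjusted p under 0.05 (77.8%, beside 11.4% of all tested genes), and the median log2 fold change was 1.17. Tcap, a protein of the muscle sarcomere, measured 9.30 ± 4.01 and 26.1 ± 8.91 CPM (log2 fold change 1.40, limma adjusted p = 0.121), and the myosin gene Myh1 135 ± 47.6 and 448 ± 315 CPM (1.51, 0.232). With the skeletal muscle list mean as a covariate the log2 fold change of S100a1 was 0.24 (limma adjusted p = 0.813). That list itself lay higher with quinpirole, so the fit cannot separate it from the treatment. The part of muscle in the S100a1 values was not tested.

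**Figure D3:**
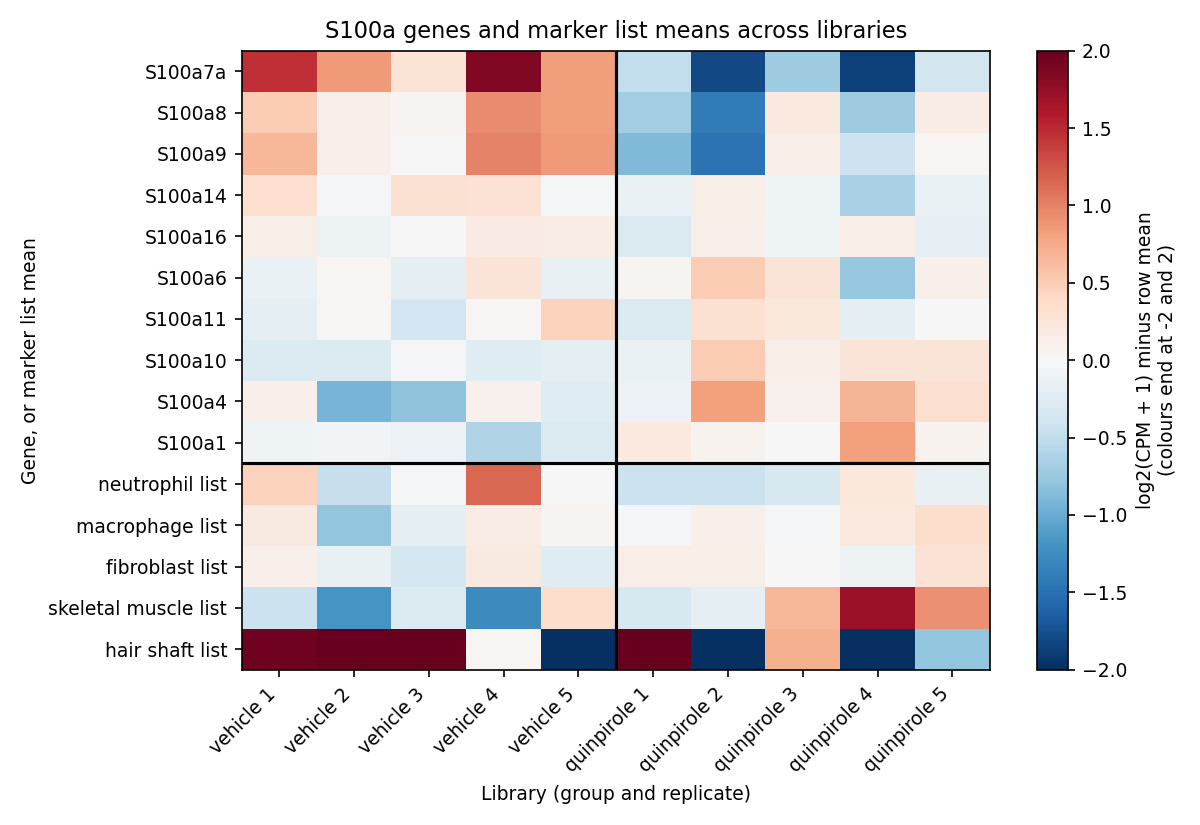
Level of each S100a gene, and mean level of 5 marker lists, in each library as log2 of CPM plus 1 minus the mean of the row, with vehicle libraries left and quinpirole libraries right of the vertical line. S100a8 and S100a9 are lowest in quinpirole replicates 1, 2 and 4 and S100a7a in quinpirole replicates 2 and 4, while the hair shaft list is high and low in both groups.

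How far the levels went together over the 10 libraries was examined for 9 relations, with p-values adjusted over the 9. Libraries were permuted without regard to group, so a difference between the groups shared by both levels enters r, rho and their p-values. The r for deviations from the group means leaves that difference out and was given no p. S100a8 and S100a9 had Pearson's r = 0.98 (permutation p = 1.00e-05, the smallest that 100000 resamples can give; adjusted 9.00e-05) and Spearman's rho = 0.98 (permutation p = 4.00e-05, adjusted 3.60e-04). The r was 0.97 without quinpirole replicates 1 and 2, the libraries farthest from the median, and 0.97 for deviations from the group means. S100a8 and S100a7a had r = 0.86 (permutation p = 0.00138, adjusted 0.00621) and rho = 0.77 (permutation p = 0.0127, adjusted 0.0379), with r = 0.81 without the 2 farthest libraries and 0.71 for deviations from the group means. The neutrophil list mean went with S100a8 at r = 0.58 (permutation p = 0.0778, adjusted 0.108) and rho = 0.56 (0.0962, adjusted 0.185), and r was 0.26 without vehicle replicates 1 and 4 and 0.40 for deviations from the group means. For S100a7a and the neutrophil list r was 0.57 (permutation p = 0.0841, adjusted 0.108) and rho 0.39 (0.263, adjusted 0.339), and r was -0.10 without the same 2 libraries and 0.36 for deviations from the group means.

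S100a4 and the macrophage list mean had r = 0.78 (permutation p = 0.00329, adjusted 0.00987) and rho = 0.79 (permutation p = 0.00824, adjusted 0.0371). Without vehicle replicates 2 and 3, which were lowest for both, r was 0.41, so r leaned on those libraries. Leaving out the farthest libraries also narrows the range, which by itself can lower r. For deviations from the group means r was 0.75. S100a4 and the fibroblast list mean had r = 0.59 (permutation p = 0.0776, adjusted 0.108) and rho = 0.53 (0.124, adjusted 0.185), and r was 0.34 without vehicle replicates 3 and 5 and 0.41 for deviations from the group means. S100a1 and the skeletal muscle list mean had r = 0.72 (permutation p = 0.0195, adjusted 0.0439) and rho = 0.54 (0.114, adjusted 0.185). That r leaned on quinpirole replicates 4 and 5, without which it was 0.38, and r was 0.51 for deviations from the group means. With the hair shaft list mean, r was 0.20 for S100a8 (permutation p = 0.577, adjusted 0.577) and -0.25 for S100a1 (permutation p = 0.505, adjusted 0.568), and rho was -0.10 (0.784, adjusted 0.882) and -0.030 (0.945, adjusted 0.945). Without the 2 farthest libraries r was 0.38 and 0.011, and for deviations from the group means it was -0.027 and -0.064.

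**Figure D4:**
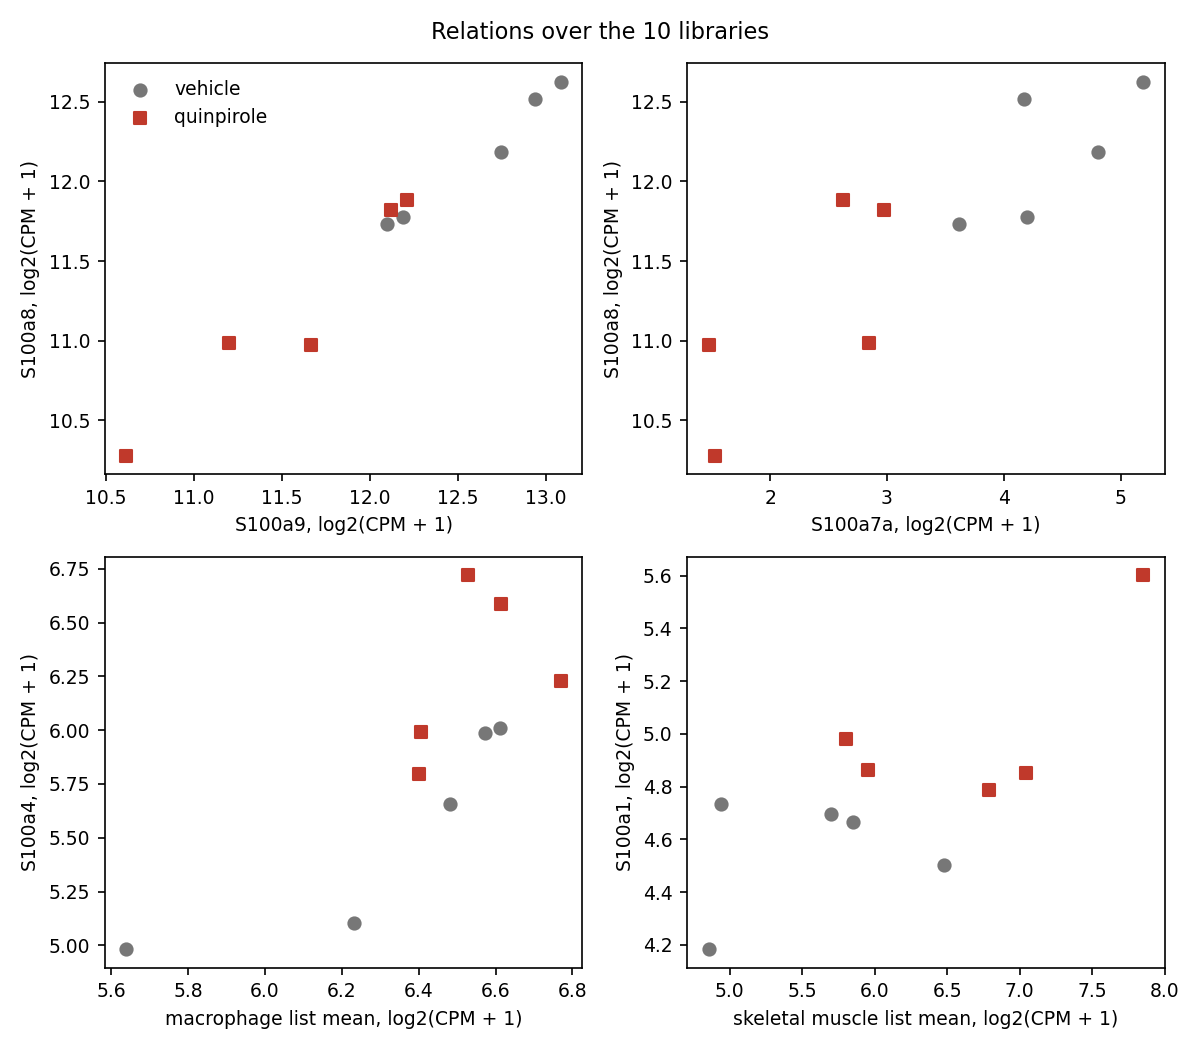
Levels in the 10 libraries, as log2 of CPM plus 1, for S100a8 against S100a9, S100a8 against S100a7a, S100a4 against the macrophage list mean and S100a1 against the skeletal muscle list mean, with vehicle as circles and quinpirole as squares. The calprotectin subunits follow one line (r = 0.98), and in the last panel quinpirole replicate 4 stands apart at the upper right.

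The 5 tested genes outside the family whose log2 level went most closely with the mean of S100a8 and S100a9 over the 10 libraries were Gm5416, Stfa1, Defb3, Lpo and Gjb6. Gm5416 had r = 0.97, Stfa1, a stefin protease inhibitor, 0.95, the beta-defensin Defb3 0.95, the lactoperoxidase gene Lpo 0.94 and Gjb6, which encodes connexin 30, 0.94. They were picked as the highest of all tested genes, so these r are descriptions. S100a8 and S100a9 were themselves lower with quinpirole, so lower values of the picked genes are partly built in by the choice. Their fold changes below are descriptions too. For deviations from the group means, r of the 5 genes lay between 0.88 (Lpo) and 0.94 (Gm5416). Defb3 measured 279 ± 138 CPM under vehicle and 73.8 ± 39.4 under quinpirole (log2 fold change -1.95, limma adjusted p = 0.174), Lpo 132 ± 52.0 and 47.8 ± 20.1 (-1.44, 0.177) and Gjb6 172 ± 35.4 and 90.8 ± 25.0 (-0.93, 0.159). Stefin genes are near-identical copies, and reads may have been divided among them.

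Of the other S100 genes, 3 of 7 looked for were in the table, and none was called. S100a3, a protein of the hair cuticle, ran from 0.14 to 179.5 CPM under vehicle and from 0 to 162 under quinpirole (log2 fold change -1.92, SE 1.60, limma adjusted p = 0.696). S100a13, which starts beside S100a1 on the opposite strand, measured 17.4 ± 4.21 and 16.5 ± 3.97 CPM (log2 fold change -0.068, adjusted p = 0.928), and its groups overlapped. The glial and melanocyte gene S100b was low, at 1.44 ± 0.613 and 1.60 ± 0.827 CPM.

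The S100 fused-type genes, whose long proteins begin with an S100 domain, sit in the same region, and none of 6 tested was called. Values were higher for 2, Flg2 and Hrnr, and lower for 4, with a median log2 fold change of -0.81. Flg2, a filaggrin relative of the granular layer, measured 265, 1007, 1120, 327 and 1190 CPM in vehicle replicates 1 to 5, and 1464, 3053, 1547, 1243 and 1566 CPM in quinpirole replicates 1 to 5. Its groups did not overlap, opposite in direction to S100a7a (log2 fold change 1.37, SE 0.44, limma adjusted p = 0.267). In the higher direction, groups did not overlap for 1.34% of all tested genes. Hornerin, Hrnr, had a log2 fold change of 0.46 (adjusted p = 0.525) and repetin, Rptn, -0.54 (0.530), or -0.34 without quinpirole replicate 1 or 2. Crnn, Tchh and Tchhl1 had -1.08, -1.54 and -1.25 with SE from 1.02 to 1.60. The sign of each turned with the skeletal muscle list mean as a covariate, and those of Crnn and Tchh also with the hair shaft list mean. Tchh was highest in vehicle replicates 2 and 3 and quinpirole replicate 1, at 1328, 1326 and 1450 CPM. Those libraries also had the highest summed hair shaft levels. Tchh was lowest in vehicle replicate 5 and quinpirole replicates 2 and 4, at 9.23, 10.2 and 8.39 CPM, which had the least hair. The part of hair in these values was not tested.

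Other genes of the inflamed epidermis lay on the same side as S100a8. Of 15 looked for, 14 were tested, all 14 had lower values with quinpirole, and none was called (limma). Of the 14, 12 had an unadjusted p under 0.05 (85.7%, beside 11.4% of all tested genes), and the median log2 fold change was -0.99. The list was chosen with earlier results of these data known and holds neighbouring Lce3 genes, so its members are not independent and the count is a description. Lce3a and Lce3b, late cornified envelope genes of damaged epidermis, had -2.23 and -1.98 (limma adjusted p = 0.169 and 0.182). Krt10, the keratin of differentiating cells, lay on the other side at 0.66 (adjusted p = 0.281), as did 7 of 8 tested suprabasal genes, with a median of 0.36.

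Of 10 intracellular partners, 7 had higher and 3 lower values and none was called, with a median of 0.048. Of the 10, 1 had an unadjusted p under 0.05 (10%, beside 11.4% of all tested genes). Anxa2, the annexin that S100a10 binds, measured 732 ± 79.9 and 815 ± 87.2 CPM (log2 fold change 0.15, limma adjusted p = 0.656). Plat, the plasminogen activator that acts with S100a10 at the cell surface, had -0.44 (0.388), Anxa6 0.27 (0.462) and Myh9, the non-muscle myosin bound by S100a4, -0.23 (0.506). Ryr1, the ryanodine receptor gene bound by S100a1 and named after its values were seen, had the largest difference of the 10. It measured 60.3 ± 32.9 and 123 ± 91.8 CPM (log2 fold change 0.84, SE 0.55, limma adjusted p = 0.599). Ryr1 had a log2 fold change of 0.52 without vehicle replicate 4, 0.48 without quinpirole replicate 4 and -0.63 with the skeletal muscle list mean as a covariate.

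Of 8 genes of receptors for released S100 proteins and of receptor signalling, 7 were tested. Values were higher for 5 and lower for 2, Cd14 and the signalling gene Myd88 (-0.21, limma adjusted p = 0.638). None was called and 1 had an unadjusted p under 0.05 (14.3%, beside 11.4% of all tested genes), with a median of 0.11. Tlr4 measured 30.6 ± 10.1 and 33.6 ± 6.89 CPM (log2 fold change 0.18, limma adjusted p = 0.815). Its co-receptor Cd14 had -0.58 (0.500), or -0.29 without vehicle replicate 4, and Nptn, a receptor of S100A8 in human cells, 0.26 (0.302). Ager, which encodes RAGE, fell short of the filter, with 36 vehicle and 18 quinpirole reads in all (two-sided exact permutation p = 0.0238, or 0.0794 adjusted over the 10 listed genes below the filter). Of 6 genes of the phagocyte NADPH oxidase, to which calprotectin brings arachidonic acid, 3 had higher and 3 lower values, none was called and none had an unadjusted p under 0.05, with a median of -0.052.

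Of 21 cytokines, receptors and transcription factors known to induce these S100 genes, 18 were tested. Values were lower for 12 and higher for 6, none was called, and the median log2 fold change was -0.050. Of the 18, 2 had an unadjusted p under 0.05 (11.1%, beside 11.4% of all tested genes). Il19, a cytokine of the IL-20 group made by keratinocytes, measured 15.9 ± 6.92 and 6.96 ± 2.14 CPM (log2 fold change -1.04, limma adjusted p = 0.229), Osm 5.40 ± 6.25 and 1.44 ± 0.746 (-1.03, 0.433) and Il1f6, the gene of IL-36 alpha, 205 ± 43.8 and 165 ± 44.7 (-0.33, 0.568). Osm was -0.57 without vehicle replicate 4, where it measured 16.4 CPM, and Il1f6 -0.18 without quinpirole replicate 1. Il17a, a strong inducer of S100a8 and S100a9 in keratinocytes, had -0.047 with SE 0.47. Il22, a cytokine that acts on keratinocytes, fell short of it, with 40 vehicle and 10 quinpirole reads in all (two-sided exact permutation p = 0.0159, or 0.0794 adjusted over the same 10 genes).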

How the data were processed

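Per the labels' protocols, RNA from 10 whole-skin samples was rRNA-depleted and made into directional libraries. Bowtie2, edgeR, RSEM 1.3.0 and Trimmomatic 0.38 are named, with build mm10 and no role, per the submitters' processing notes. The sources used here do not give the annotation, gene filter or use of strand. The authors' table holds normalised read signal per gene and library, as deposited. Divided by the worth of 1 read, 100% of its entries were whole within 1e-06, and column totals equalled those from TMM scaling within 2.22e-16, so the values are CPM on TMM library sizes.

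Tests covered the 14548 genes with 1 CPM or more in 5 or more libraries, all 10 S100a genes among them. Log2 of CPM plus 1 was tested with limma 3.58.1 (R 4.3.3), with a mean-variance trend, two-sided, adjusted by Benjamini-Hochberg over all genes and called at 0.05. This scale understates the change of low genes. The steps were tested on simulated data. Alternatives used edgeR 4.0.16 and DESeq2 1.42.0 on recovered reads, other pseudocounts and filters, quantile normalization, covariates, a block and libraries left out. Most genes of each covariate list lay on one side of the comparison, so a covariate shares variation with the treatment. No library repeated another: the smallest chi-square per gene within a group was 6.55.

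The S100a genes, the gene lists and the motifs were chosen with earlier results of these data, and the promoter sequences, in view. Genes named are the 10 S100a genes, the other S100 and S100 fused-type genes, up to 3 genes with the smallest p in each list, 7 genes always named where present (Krt14, Krt10, Ly6g, Ager, Tlr4, Anxa2, Il17a), and the 5 most like the calprotectin subunits. Mpo, Il22, Ngp, Elane and Ryr1 were named after their values were seen. Lengths are the union of coding transcripts' exons in GENCODE vM21 (mm10), in which 95.9% of symbols matched 1 gene. Basal keratinocyte, melanocyte and Schwann cell, and adipocyte lists had no called gene, with medians of -0.0068, -0.79 and 0.044. RefSeq promoters were at hand for 8 of the 10 genes. Figures used matplotlib 3.10.9.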

Additional observations from a re-analysis of the deposited data

Results flagged for a closer look

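Groups of 5 libraries were searched for a single library far from the others, over 36 groups, of which chance flags about 1 in 20. S100a1 in quinpirole replicate 4 was 47.6 CPM, and the next highest library of that group was at 30.6 CPM. Quinpirole replicate 4 also had the highest summed level of skeletal muscle genes, at 6582 CPM. S100a3 in quinpirole replicate 1 was 162 CPM, where the next was 28.9, and the summed level of the hair shaft genes in the same library was 5643 CPM, where the next was 1467. The summed level of the macrophage genes in vehicle replicate 2 was 985 CPM, below the next at 1713, and S100a4 was lowest in that library too.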

How the results depend on the processing

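For the 10 S100a genes the sign held in all 22 alternatives, apart from S100a6 and S100a11. limma and edgeR called none of the 10 in any setting, and DESeq2 called 3. The median of the 10 lay between -0.15 and -1.17e-04. Against 3 genes called in all, limma called 5 with a pseudocount of 0.1, 6 without a filter, 5 with a filter of 5 CPM, 14 with the hair shaft covariate, 8 with the neutrophil covariate and 0 with the skeletal muscle covariate (1204 at an unadjusted p under 0.05) or without both libraries numbered 4 (1453), a setting chosen after the data were seen. edgeR called 5 and DESeq2 219, and leaving out 1 library gave 0 to 10 (10 without vehicle replicate 5, 1 without vehicle replicate 3 and 0 without any other; 1312 to 2215 at an unadjusted p under 0.05). The replicate block called 0 (1576 at an unadjusted p under 0.05), but the numbers did not pair the samples: correlations of deviations between same-numbered libraries ran from -0.24 to 0.22, and not every sample correlated best with its own number. Signs turned as follows, with the cause not tested. S100a6 lay between -0.048 and 0.27 with 1 library left out. S100a11 was -0.091, -0.0089 and -0.018 with the hair shaft, skeletal muscle and neutrophil covariates, and -0.075 to 0.14 with 1 library left out. With the skeletal muscle covariate S100a3 was 0.28, Crnn 0.71, Tchh 0.62, Tchhl1 0.11, Tlr4 -0.096 and Ryr1 -0.63. With the hair shaft covariate Crnn was 0.30 and Tchh 0.26. S100a13 was 0.12 with the neutrophil covariate and -0.16 to 0.027 with 1 library left out, and S100b -0.098 to 0.21. Il17a was 0.070 by edgeR, 0.083 by DESeq2, 0.59 with the neutrophil covariate and -0.45 to 0.19 with 1 library left out. Among the 10 S100a genes, S100a7a had the fewest reads, 13 in its lowest library. S100a3, S100b, Crnn, Tchhl1 and Il17a had fewer still in theirs.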

Other observations

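Quinpirole replicate 4 held the lowest values of the 10 libraries for S100a6 (145 CPM), S100a7a (1.78 CPM) and S100a14 (191 CPM) and the highest for S100a1 (47.6 CPM). Quinpirole replicate 2 held the lowest values for S100a8 (1242 CPM) and S100a9 (1568 CPM) and the highest for S100a4 (104 CPM), S100a6 (349 CPM) and S100a10 (233 CPM). Both libraries had little hair, with summed hair shaft levels of 7.88 and 10.8 CPM. Vehicle replicate 5 had as little hair, at 4.75 CPM, with S100a8 at 5849 CPM and the highest S100a11 of all libraries, at 679 CPM. Single libraries cannot decide whether hair content bears on the S100a values, and that was not tested.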
